A study of Rattus norvegicus with 14 samples.

Results

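The genes described here are the insulin and insulin-like growth factor (IGF) ligands, receptors and binding proteins that the arrays name in rat choroid plexus (CP): Ins1, Ins2, Igf1, Insr, Igf1r, Igf2r, Igfbp2, Igfbp3, Igfbp5 and Igfbp6. They were chosen by symbol, through the accession that each probe carries. They make 10 of the 15154 named genes of the array, with 13 probes among them. A gene with more than 1 probe was read from its brightest probe.

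Insulin and the IGFs are related peptide hormones that act through tyrosine kinase receptors, the insulin receptor and the type 1 IGF receptor, and through them on growth, survival and metabolism. The type 2 IGF receptor carries no kinase and clears IGF2 from the surroundings of the cell, and the IGF binding proteins hold IGFs in extracellular fluid and control how much of them reaches a receptor. The CP, the epithelium and stroma that make cerebrospinal fluid, is known as a source of IGF2 and of IGF binding proteins for that fluid.

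The tissue was CP of both lateral ventricles of Wistar rats, about 2 months old, taken 2 weeks after surgery. The groups were ovariectomized (OVX) females, with 3 arrays, sham-operated females, with 3 arrays, orchidectomized (OOX) males, with 4 arrays, and sham-operated males, with 4 arrays. Each array was hybridized with a Cy3-labelled pool of RNA from 3 animals, and all rats were kept on the same light cycle. The labels give 4 arrays for each male group, more than the number of pools in the methods. In both sexes, separate pools of 3 animals would also need more rats than are listed per group beside the hormone levels. Whether pools of a group share animals is not given in the sources used here, so that n may overstate the independent pools, and p-values measure the spread between these pools only. The values are log2 signals after subtraction of the median of the array, so that 0 is the median probe and a difference of 1 is a doubling. They have no unit that can be set against another probe.

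Between 79.7% and 87.2% of the spots of an array were well above background, which is the judgement of the scanner software. In females this share was 79.7%, 82.7% and 80.6% on the sham arrays and 85.3%, 86.5% and 87.2% on the OVX arrays, with no overlap. What this split does to the values of faint probes was not tested. All 10 markers of CP epithelium were well above background on all 14 arrays, 4 of them saturated. There were 5 slides and 2 scan days. OVX replicates 2 and 3 and all male arrays were scanned on the second day, OVX replicate 1 and every sham female array on the first, so that in females surgery and scan day are nearly the same split. The mean of 8 pituitary markers was 3.23 in sham female replicate 1, against -1.59 and -1.74 in the other sham females.

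All 10 genes were well above background on all 14 arrays. Igfbp2 was saturated on all 14, as was Igf2, which encodes IGF2, so that neither has a measured difference here. In females Ins1 was the only gene of the 10 that passed the test, higher in OVX than in sham CP (limma, Benjamini-Hochberg adjusted p under 0.05 over 27439 genes and unnamed probes). That compares with 6.23% of all 15118 named genes tested, 1.82% in the higher and 4.41% in the lower direction. In OVX CP Igf1, Igf2r and Igfbp6 were lower than in sham CP on every array but did not pass the test. Of all named genes 16.2% were lower without overlap. In males none of the 10 genes passed.

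**Figure D1:**
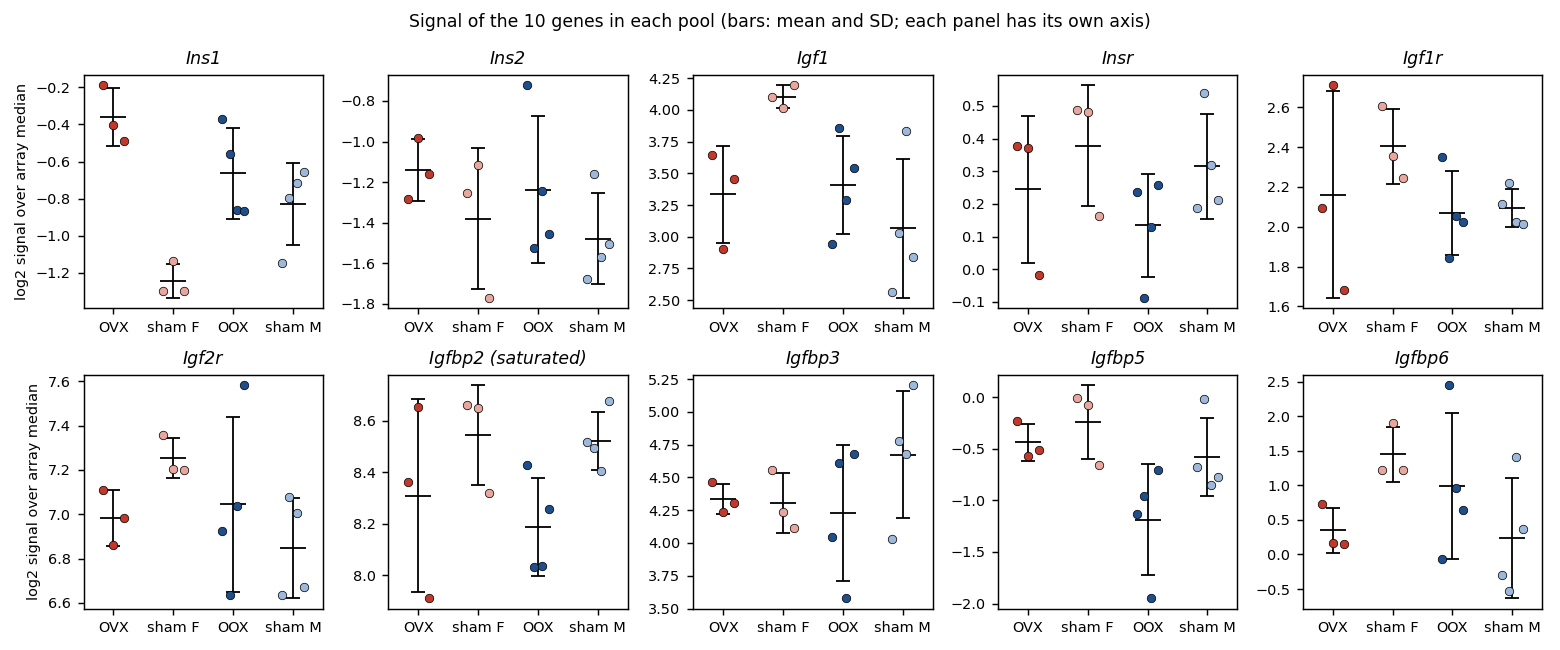
Log2 signal over the array median of the 10 genes in each pool (points), with the mean and SD of each group (bars), for OVX and sham females and OOX and sham males. The 3 OVX pools sit above the 3 sham female pools for Ins1 and below them for Igf1, Igf2r and Igfbp6; Igfbp2 is saturated in every pool.

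Ins1 encodes preproinsulin 1, and rats have 2 insulin genes. Its probe read -0.19, -0.40 and -0.49 in OVX females, against -1.30, -1.14 and -1.30 in sham females. Every OVX pool was above every sham female pool. The means were -0.36 ± 0.15 in OVX and -1.24 ± 0.09 in sham females (SD, n = 3 each), a difference of 0.88 on the log2 scale (SE 0.14, 95% confidence interval 0.56 to 1.21), or 1.85-fold higher, with an adjusted p of 0.0401 (limma). In males Ins1 read -0.37, -0.56, -0.86 and -0.87 in OOX pools, against -1.15, -0.80, -0.72 and -0.66 in sham pools. The male groups overlapped, and their difference was 0.17 (SE 0.17, 95% confidence interval -0.23 to 0.56, adjusted p = 0.936, limma).

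The Ins1 probe is spotted 10 times on each array, and these spots give its technical error. Their SD lay between 0.04 and 0.12 on the 14 arrays. All spots used in OVX females, from -0.58 to -0.13, were brighter than all those used in sham females, from -1.45 to -1.002. Before scaling, the median pixel signal of these spots was 230.5, 193 and 294 in OVX females, against 131, 142 and 152 in sham females. The local background was 51 to 52 in OVX and 52.5 to 56 in sham females, so that the signal was of a low but measurable brightness. No more than 1 spot per array, 5 in all, was marked as an outlier and left out.

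**Figure D2:**
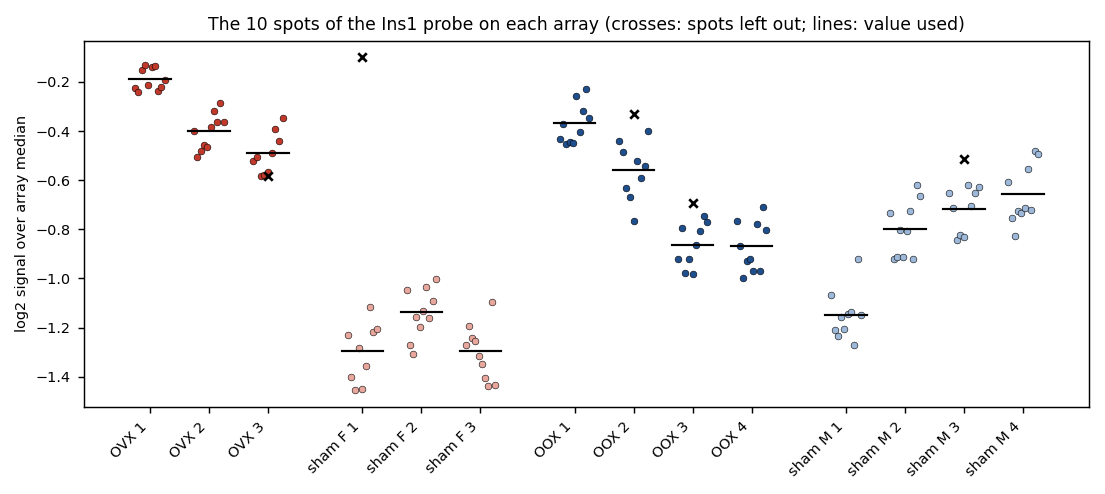
Log2 signal over the array median of the 10 spots of the Ins1 probe on each array (points), the spots left out as outliers (crosses) and the value used (lines). The used spots of the 3 OVX arrays lie from -0.58 to -0.13 and those of the 3 sham female arrays from -1.45 to -1.002, with no overlap; the male groups overlap.

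The Ins1 difference kept its direction under every setting tried and did not keep its call. Some settings, such as the block for replicate number, change the test and leave the difference as it is. On the only slide that held both female groups it was 1.11, from 1 array of each, and on the first scan day it was 1.05, from 1 OVX and 3 sham arrays. A block for slide or for scan day estimates Ins1 from these same arrays, so that a call lost with it says little. Ins1 no longer passed with a block for slide (adjusted p = 0.534) or for scan day (adjusted p = 0.168), with quantile normalization (adjusted p = 0.0630), with normexp background correction (difference 0.57, adjusted p = 0.0591), or when any single array other than sham female replicate 2 was left out (differences 0.80 to 0.95, adjusted p = 0.0791 to 0.125, limma in each).

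**Figure D3:**
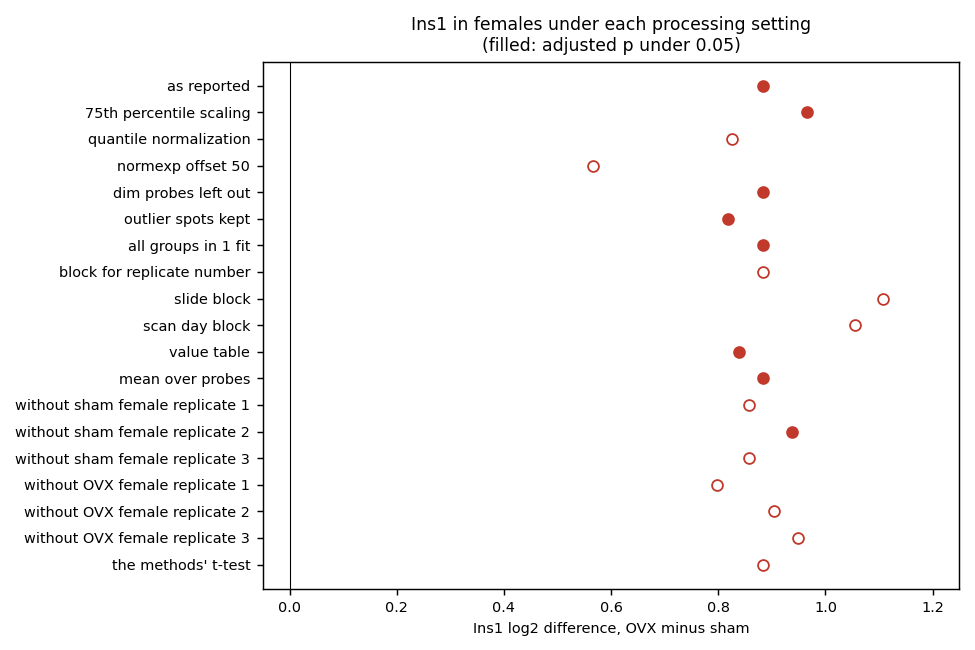
Log2 difference of Ins1 between OVX and sham females under each processing setting (points; filled where the adjusted p is under 0.05). All values lie between 0.57 and 1.11, and the test is passed in 8 of the 19 settings shown.

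Ins2 encodes the other insulin. It read -1.29, -0.98 and -1.16 in OVX females, against -1.26, -1.11 and -1.77 in sham females, and the groups overlapped (difference 0.24, SE 0.20, 95% confidence interval -0.25 to 0.73, adjusted p = 0.544, limma). In males it read -0.72, -1.53, -1.24 and -1.46 in OOX pools, against -1.68, -1.16, -1.57 and -1.51 in sham pools. These overlapped as well (difference 0.24, SE 0.21, adjusted p = 0.905, limma). The 2 insulin genes are close paralogs, and whether each probe also binds the RNA of the other was not tested.

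The insulins are the ligands whose transcription is known best, and the bases before their start are shown because 1 of the pair passed the test and the other did not. Whether the change of Ins1 differed from that of Ins2 was not tested. The 250 bases before each gene start are given from RefSeq, assembly GRCr8, 5′ to 3′ on the strand of the gene, in lower case with each GCCATCTG in capitals. This is the core of the insulin E box, which beta cell factors such as NeuroD1 bind. Ins1 is at chr1:261185869-261186118 on the plus strand and Ins2 at chr1:207273806-207274055 on the minus strand.
Ins1: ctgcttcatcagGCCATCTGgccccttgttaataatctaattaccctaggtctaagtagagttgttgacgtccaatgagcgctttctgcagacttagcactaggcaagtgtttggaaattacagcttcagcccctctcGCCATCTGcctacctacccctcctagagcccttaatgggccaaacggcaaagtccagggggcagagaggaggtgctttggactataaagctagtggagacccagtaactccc
Ins2: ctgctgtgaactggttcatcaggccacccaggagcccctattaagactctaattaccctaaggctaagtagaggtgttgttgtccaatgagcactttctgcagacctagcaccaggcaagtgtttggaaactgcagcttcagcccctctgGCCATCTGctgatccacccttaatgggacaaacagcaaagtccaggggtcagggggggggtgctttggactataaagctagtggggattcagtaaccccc

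A global alignment of the 2 stretches had 209 identical bases in 263 columns, or 79.5%. The E box letters occur 2 times in Ins1, beginning 238 and 112 bases before the start, and once in Ins2, 100 bases before it. Searched on both strands, they occur in the same window of 334 of 33469 promoters (0.998%), and among the 10 genes in those of Ins1 and Ins2 alone. TATAAA, the TATA box, is found once in each insulin promoter and in 12.9% of all promoters. The palindromic estrogen response element was in none of the 10 promoters and in 8 of all (0.0239%), and the androgen response element in none of the 10 and in 4 of all (0.0120%). A match or its absence says only whether these letters stand in the window.

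Islet cells are the known site of insulin transcription, so their markers were read beside Ins1. Of 18 islet markers 15 were measured, and 7 were well above background on all 14 arrays, among them genes that neurons also express. Pdx1, Isl1, Slc30a8, Ucn3 and Gcg were not well above background on any array. Neurod1, which encodes NeuroD1, was well above background on all 14. It differed by -2.67 in females (adjusted p = 0.169, limma) and by 1.44 in males (adjusted p = 0.841, limma). The mean of the 15 was -3.08, -2.76 and -2.59 in OVX females, against -2.76, -2.31 and -2.20 in sham females. The ranges overlapped, and the 5 probes below background have no measured level in it. The median difference of the 15, with these 5 included, was -0.49 in females, against -0.07 over all named genes. In males it was 0.18, against 0.02 over all. Gcg met the threshold in the fit (adjusted p = 0.0401, limma), but, with no array above background, has no measured difference.

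Igf1 encodes IGF1, the ligand of the type 1 receptor. Its brightest probe read 3.64, 2.91 and 3.46 in OVX females, against 4.10, 4.01 and 4.20 in sham females. Every OVX pool was below every sham female pool. The means were 3.34 ± 0.38 in OVX and 4.10 ± 0.09 in sham females (SD, n = 3 each), a difference of -0.77 (SE 0.21, 95% confidence interval -1.28 to -0.26), which did not pass the test (adjusted p = 0.0826, limma). A second, dimmer probe with the accession of another Igf1 transcript read 2.13, 1.75 and 2.13 in OVX females, against 2.82, 2.71 and 2.81 in sham females. Its difference was -0.78 (SE 0.15) and passed when each probe was fitted on its own (adjusted p = 0.0415, limma, with 4.27% of 30280 probes called lower). The direction and size were thus alike for both probes, and the call depended on which was read.

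On the slide that held both female groups the Igf1 difference was -0.55 with the brightest probe and -0.69 with the second, from 1 array of each group. On the first scan day it was -0.46 with the brightest probe, from 1 OVX and 3 sham arrays. In males Igf1 read 2.94, 3.86, 3.29 and 3.54 in OOX pools, against 2.56, 3.03, 3.84 and 2.84 in sham pools. The male groups overlapped, with a difference of 0.34 (SE 0.30, 95% confidence interval -0.34 to 1.03, adjusted p = 0.906, limma). Of the 4 groups the sham females had the highest mean, and they alone lay apart from the next, the OOX males.

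Igf2 lies near Ins2 on chromosome 1, with 2 other genes between them in the RefSeq order. Its probe was saturated on all 14 arrays, with a log2 signal before scaling between 16.06 and 16.17. No difference can be read from it. Ide encodes the insulin-degrading enzyme, which cleaves insulin. It read 3.04, 3.05 and 3.00 in OVX females, against 3.22, 3.15 and 3.16 in sham females, values that did not overlap and differed by -0.15 (SE 0.11, adjusted p = 0.486, limma). In males Ide differed by 0.13 (SE 0.13, adjusted p = 0.935, limma).

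The receptors gave no call in either sex. Insr encodes the insulin receptor and read 0.38, 0.37 and -0.02 in OVX females, against 0.49, 0.48 and 0.16 in sham females. It read 0.24, -0.09, 0.13 and 0.26 in OOX males, against 0.19, 0.54, 0.32 and 0.21 in sham males. The groups overlapped in both sexes. The differences were -0.13 (95% confidence interval -0.55 to 0.28, adjusted p = 0.688, limma) in females and -0.18 (95% confidence interval -0.50 to 0.14, adjusted p = 0.882, limma) in males. A second Insr probe differed by -0.46 (SE 0.24, adjusted p = 0.333, limma) in females and by -0.37 (SE 0.16, adjusted p = 0.638, limma) in males.

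Igf1r encodes the type 1 IGF receptor, and its probe is also spotted 10 times. It read 2.09, 2.71 and 1.68 in OVX females, against 2.61, 2.36 and 2.24 in sham females. The spread among OVX pools (SD 0.52) was above that among sham females (SD 0.19), and the SD of the spots within an array was 0.02 to 0.06. Without OVX replicate 3 the female difference was -0.0003, and without OVX replicate 2 it was -0.52. In males it read 2.35, 1.84, 2.06 and 2.02 in OOX pools, against 2.11, 2.22, 2.02 and 2.01 in sham pools. The differences were -0.24 (95% confidence interval -0.90 to 0.42, adjusted p = 0.650, limma) in females and -0.03 (95% confidence interval -0.35 to 0.30, adjusted p = 0.981, limma) in males. The male interval is the narrower of the 2 and leaves room for a decrease of up to 0.35 or an increase of up to 0.30.

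Igf2r encodes the type 2 receptor, which takes up IGF2 and lysosomal enzymes. It read 7.11, 6.86 and 6.98 in OVX females, against 7.36, 7.20 and 7.20 in sham females. The female groups did not overlap, but the difference of -0.27 (SE 0.13, 95% confidence interval -0.58 to 0.04) did not pass the test (adjusted p = 0.284, limma). It was -0.09 on the slide with both groups and -0.14 on the first scan day. In males it read 6.93, 6.63, 7.04 and 7.58 in OOX pools, against 6.63, 7.08, 7.01 and 6.67 in sham pools, and the groups overlapped (difference 0.20, SE 0.22, adjusted p = 0.943, limma).

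**Figure D4:**
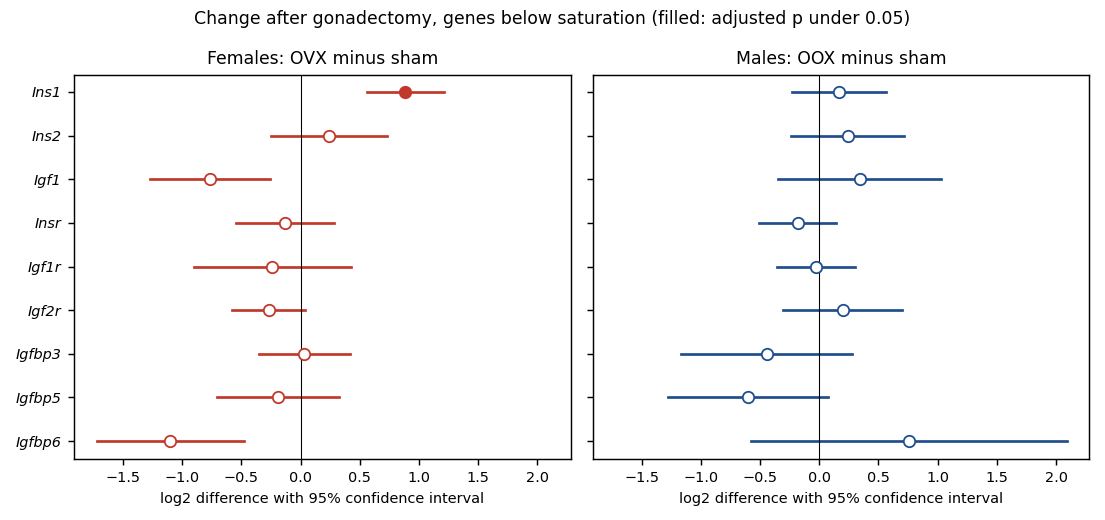
Log2 difference between OVX and sham females (left) and between OOX and sham males (right) for the 9 genes below saturation, with 95% confidence intervals (filled points: adjusted p under 0.05). Ins1 in females, at 0.88, is the only filled point; the intervals of Igf1 and Igfbp6 in females leave out 0, and in males every interval covers 0.

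Of the binding proteins, Igfbp2 and Igfbp5 are neighbours on chromosome 9 with no gene between them in the RefSeq order. Igfbp2, a carrier of IGF2 in cerebrospinal fluid, was saturated on all 14 arrays with both of its probes, and its brightest probe had a log2 signal of 15.97 to 16.16 before scaling. Igfbp3, the main carrier of IGFs in blood, read 4.46, 4.24 and 4.30 in OVX females, against 4.56, 4.24 and 4.12 in sham females. In males it read 4.05, 4.61, 3.58 and 4.68 in OOX pools, against 4.03, 4.78, 4.68 and 5.20 in sham pools. The groups overlapped in both sexes, with differences of 0.03 (95% confidence interval -0.35 to 0.41, adjusted p = 0.927, limma) in females and -0.44 (95% confidence interval -1.17 to 0.28, adjusted p = 0.850, limma) in males.

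Igfbp5 encodes a binding protein that also attaches to extracellular matrix. It read -0.23, -0.57 and -0.51 in OVX females, against -0.01, -0.07 and -0.66 in sham females. In males it read -1.14, -0.95, -1.95 and -0.71 in OOX pools, against -0.68, -0.02, -0.85 and -0.78 in sham pools. OOX males had the lowest mean of the 4 groups, at -1.19 ± 0.54 (SD, n = 4), but their range overlapped that of the next group, the sham males. The differences were -0.19 (SE 0.21, adjusted p = 0.638, limma) in females and -0.60 (SE 0.30, 95% confidence interval -1.28 to 0.07, adjusted p = 0.684, limma) in males.

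Igfbp6 encodes a binding protein that prefers IGF2 to IGF1. It read 0.72, 0.17 and 0.15 in OVX females, against 1.23, 1.91 and 1.22 in sham females. Every OVX pool was below every sham female pool. The means were 0.35 ± 0.33 in OVX and 1.45 ± 0.40 in sham females (SD, n = 3 each), a difference of -1.10 (SE 0.26, 95% confidence interval -1.72 to -0.48), which did not pass the test (adjusted p = 0.0566, limma). On the slide with both groups it was -0.49, from 1 array of each, and on the first scan day -0.72, from 1 OVX and 3 sham arrays. In males Igfbp6 read -0.06, 2.44, 0.96 and 0.65 in OOX pools, against -0.30, -0.53, 1.41 and 0.37 in sham pools. The male pools spread over more than the whole female range, and their difference was 0.76 (SE 0.58, 95% confidence interval -0.58 to 2.09, adjusted p = 0.874, limma). Without OOX replicate 2 it was 0.27, and without sham replicate 3 it was 1.15.

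Markers of fibroblasts and meninges were lower in OVX pools, as were Igf1 and Igfbp6. All 12 of these markers were well above background on all 14 arrays, 1 of them saturated. The mean of the other 11 was 3.60, 2.96 and 3.34 in OVX females, against 3.86, 4.02 and 3.66 in sham females, with no overlap. Of the 12, Mgp, a matrix protein, and Aldh1a2, a retinoic acid synthesis enzyme of the meninges, fell in OVX CP (differences -0.82 for both, adjusted p = 0.0489 and 0.0459, limma). None rose. Of all named genes 4.41% fell. These calls were not stable: Mgp passed in 5 and Aldh1a2 in 4 of 19 settings, with adjusted p up to 0.677 and 0.674 (limma and the pairwise test of the study), a count made after their values were seen. The median difference of the 12 was -0.48, against -0.07 over all named genes. In males the highest marker means were 4.59 in OOX replicate 2 and 4.15 in sham replicate 3, the 2 pools with the highest Igfbp6 of their groups. Among other marker lists, median differences in females were -0.57 for neurons, -0.34 for astrocytes, -2.33 for pituitary and 0.72 for red blood cells, with 0 genes called. In males these medians were 0.48, 0.33, 0.09 and -0.20, again with 0 called. Of the 8 pituitary markers 4 were well above background on all 14 arrays. Their mean was 3.23 in sham female replicate 1, against -1.59 and -1.74 in the other sham females. The red blood cell list had 3 measured genes, 1 of them saturated. For endothelium, mural cells, macrophages, oligodendrocytes and CP epithelium the female medians were 0.04, 0.02, 0.12, 0.01 and -0.20. The male ones were -0.10, 0.15, 0.17, 0.44 and -0.30, with 0 called in either sex. Of the 10 epithelium markers 4 were saturated on all 14 arrays, and saturated values follow the median of the array. The epithelium medians are therefore not a measured change. The part of fibroblasts and of these other cells in the Igf1 and Igfbp6 values was not tested, and in bulk tissue fewer cells of a type and less RNA per cell cannot be told apart.

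**Figure D5:**
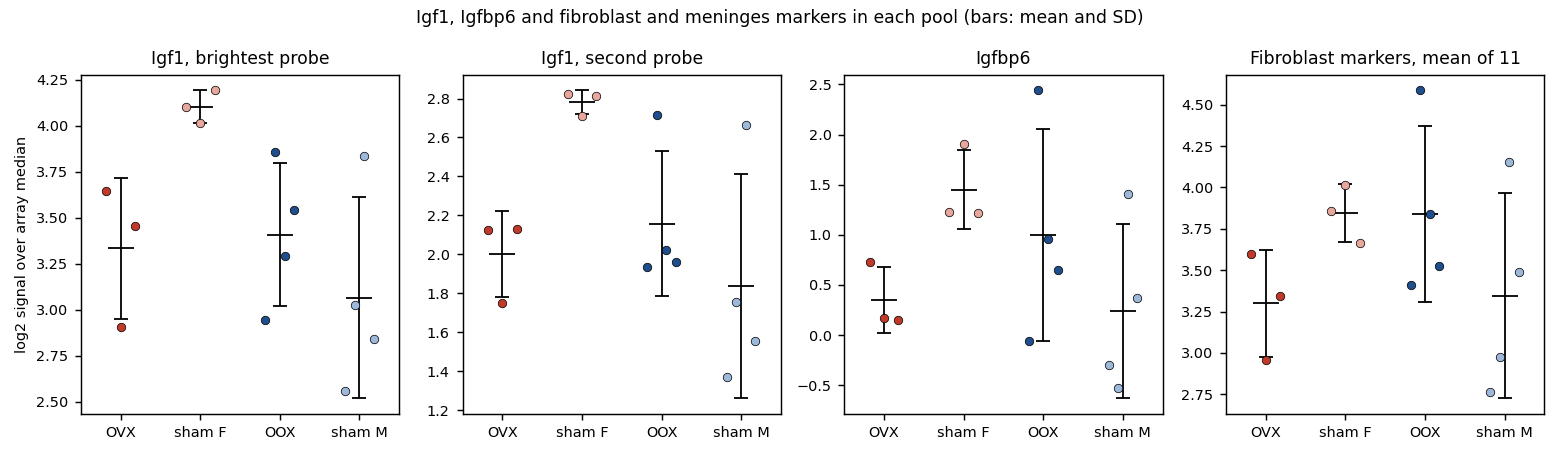
Log2 signal over the array median of the brightest and the second probe of Igf1 and of Igfbp6, and the mean of 11 fibroblast and meninges markers, in each pool (points) with the mean and SD of each group (bars). All 4 measures are lower in the 3 OVX pools than in the 3 sham female pools; the male pools overlap in each.

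Counted over the 10 genes, the values of the female groups did not overlap for 4, Ins1 above and Igf1, Igf2r and Igfbp6 below. Of all named genes 27.7% did not overlap, 11.5% higher and 16.2% lower. The median difference of the 10 in females, with saturated Igfbp2 included, was -0.21, against -0.07 over all named genes. With the pairwise test and limits of the study (fold above 1.5, p under 0.05 before adjustment), Ins1, Igf1 and Igfbp6 were called in females, against 11.1% of all named genes. After Benjamini-Hochberg adjustment of that test 0 of the 10 were called, against 0.0198% of all. In males the groups overlapped for all 10 genes, while they did not for 4.02% of all, and 0 passed limma, against 0.0860% of all. Among the brightest probes only Igfbp2, which is saturated, had an unadjusted p under 0.05 in males (limma), against 6.88% of all. The second Insr probe, fitted on its own, had an unadjusted p of 0.0451 in males (limma). The pairwise test of the study with its fold limit called 0 of the 10 in males, against 2.33% of all. The median difference in males was 0.07, against 0.02 over all.

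The male effect minus the female effect asks whether gonadectomy changed a gene differently in the sexes. It passed for 0 of the 10 genes, against 0.251% of all named genes (38 of 15118, limma over all 14 arrays). At an unadjusted p under 0.05, which 10.3% of all genes reached, stood Ins1, Igf1 and Igfbp6. The difference of effects was -0.72 for Ins1 (SE 0.23, 95% confidence interval -1.21 to -0.23, adjusted p = 0.298), 1.11 for Igf1 (SE 0.41, 95% confidence interval 0.21 to 2.01, adjusted p = 0.384) and 1.86 for Igfbp6 (SE 0.77, 95% confidence interval 0.19 to 3.53, adjusted p = 0.417). For Igf2r it was 0.47 (SE 0.28, adjusted p = 0.580). That Ins1 passed in females and not in males is therefore not shown to be a difference between the sexes.

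The wider pathway was read from 6 lists of other ligands and binding proteins, IGFBP proteases and their inhibitors, proximal signalling, the PI3K, Akt and mTOR branch, FoxO and insulin target genes, and imprinted growth genes with IGF mRNA-binding proteins. Without the 10 genes the lists hold 88, of which 74 were measured and 66 were well above background on all 14 arrays. In females 1 of the 74 passed in the higher direction and 0 in the lower, and in males 0 passed, against 1.82% and 4.41% of all named genes in females and 0.0860% in males. The median difference of the 74 was -0.08 in females, against -0.07 over all named genes, and 0.05 in males, against 0.02 over all. In proximal signalling, with the receptor substrates and adaptors, 0 of 14 passed in either sex, and in the PI3K, Akt and mTOR branch 0 of 22, with median differences of -0.15 and -0.03 in females. In FoxO and insulin target genes 0 of 16 passed, with a median difference of -0.12 in females and 0.08 in males. In IGFBP proteases and their inhibitors 0 of 8 passed, and in other ligands and binding proteins 0 of 12.

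The gene that passed was Igf2bp1, which encodes a protein that binds Igf2 mRNA. Its probe is dim, well above background on 2 of 3 OVX, 0 of 3 sham female, 0 of 4 OOX and 3 of 4 sham male arrays. It read -4.04, -3.79 and -4.80 in OVX females, against -5.74, -5.75 and -5.86 in sham females (fitted difference 1.57, adjusted p = 0.0401, limma). With every sham female array below background the level there has only a bound, and that bound gives no fold. The fit no longer passed when any 1 array was left out (adjusted p = 0.0550 to 0.125, limma), nor in 6 of the 11 other settings.

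Likeness of pattern over the 14 arrays was measured by Pearson's r against 11411 other genes that were well above background on all arrays. These arrays share groups, slides and scan days, so that r is given as a description. Ins1 was most like Ager (r = 0.934), Lhx4 and Chek2. Igf1 was most like Ppic (r = 0.895), Ror2 and Agtr1a. Among the receptors, Insr was most like Pak2 (r = 0.912), Oga and Cbx6, Igf1r most like Slc12a9 (r = 0.934), Dact2 and Rbm42, and Igf2r most like Dync1i2 (r = 0.951), Nfe2l1 and Mlh3. Igfbp3 was most like Slc28a2 (r = 0.905), Podxl and Krt76, and Igfbp5 most like Mest (r = 0.860), Cfap97 and Gnaq. Igfbp6 was most like Bgn (r = 0.929), which encodes the matrix proteoglycan biglycan, Akr1c14 and Foxc2. For saturated Igfbp2 the values follow the median of the array, and its likeness is not given, nor is that of Ins2.

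Ordered by mean, Ins1 was highest in OVX females, then OOX males, sham males and sham females, and Ins2 in OVX females, OOX males, sham females and sham males. Igfbp6 and Igf2r were highest in sham females, then OOX males, OVX females and sham males. For Ins1, Ins2, Igfbp6 and Igf2r, as for the other genes below saturation except Igf1, the ranges of neighbours in this order overlapped. The sham females were scanned on another day than all males, so that sex and scan day cannot be told apart for the sham groups.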

How the data were processed

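RNA from lateral ventricle CP was measured on 14 1-colour Agilent arrays. The values used are spot intensities in the deposited scanner output, from which Feature Extraction 10.5.1.1 had subtracted background and spatial trends, with no scaling between arrays. The deposited table of log2 values, which the authors centred on the median with BRB-ArrayTools, served as an alternative.

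Saturated spots were kept and outlier spots removed (222 to 877 on an array), spots of a probe were averaged, and the array median was subtracted from the log2 signal. Probes were named through RefSeq accessions (18004 of 30367), with assembly GRCr8 used for names, gene order and promoter sequences alone. Groups were compared within each sex with limma 3.58.1 in R 4.3.3, with no covariate, and between sexes in a fit over all arrays, with Benjamini-Hochberg adjustment. limma's fits were tested on simulated data. Tables, the alignment and the plots were made with pandas 2.3.3, biopython 1.88 and matplotlib 3.10.9. The number of arrays limits the precision.

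The genes, lists and tests were chosen with earlier results of these data known. Named were the 10 genes, the passing members of each pathway list, Igf2 and Ide, which the study measured by PCR, and for each gene the 3 most alike, which for Ins2 are not reported here. Other genes named (islet and fibroblast markers) were picked after their values were seen. The alternatives left out each array in turn, added a block for slide, scan day or replicate number, fitted all groups together, used quantile or 75th percentile scaling or normexp (offset 50), kept outlier spots, dropped dim probes, averaged the probes of a gene, and took the value table or the methods' t-test. Normexp on the mean signal was not run, since the files used here give the median signal, and it was run on that instead, a choice made after seeing the data, as was the fit of each probe on its own. The numbers of the replicates were checked for pairing and were not taken as pairs.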

Additional observations from a re-analysis of the deposited data

Results flagged for a closer look

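Of the 10 genes, Igf2, Ide and Igf2bp1, the last was the only one that passed the test of the male effect minus the female effect. Its fitted difference of effects was -2.34 (SE 0.33, adjusted p = 0.0113, limma over all 14 arrays), but its probe was not well above background on any sham female or OOX array, so that the effect in each sex rests on a group with no measured level. With normexp the value was -0.35 (adjusted p = 0.667). It read -4.57, -5.12, -4.53 and -4.40 in OOX males, against -3.85, -3.71, -4.18 and -3.82 in sham males. No array of the 4-array groups stood apart from the others in any of the 10 genes by Dixon's limit.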

How the results depend on the processing

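With 3 and 4 arrays per group, and with the female comparison nearly the same split as scan day, the call of Ins1 is not stable, and saturated or dim probes have no measured difference. Ins1 was the 1 gene of the 10 called in females. The count was 0 with quantile normalization, normexp, the replicate block, the slide block, the scan day block and the t-test of the methods after adjustment, and 3 with that test at an unadjusted p and its fold limit. It was 0 to 1 with 1 array left out, and 1 under the other settings. In males and in the difference between the sexes it was 0 under every setting run. The cause of these changes was not tested. Over all named genes the female count was 942, 64 with quantile normalization, 118 with normexp, 188 without dim probes, 230 with all groups in 1 fit, 14 with the scan day block, 3 with the t-test, 0 with the slide block or the replicate block (904 and 3153 at an unadjusted p under 0.05) and 2 to 950 with 1 array left out. Scaling to the 75th percentile gave 1030, of which 383 were higher, against 275 of 942. The male count was 13, and 0 with normexp, all groups in 1 fit and the t-test, 8 with the replicate block, 18 with the slide block and 6 to 12 with 1 array left out, the 6 without sham replicate 2. The difference between the sexes gave 38, and 9 to 83 under the other settings.

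The block for replicate number took the Ins1 call away (adjusted p = 0.0733, limma). It cannot change a difference, since each number occurs equally in both groups. To look for pairing, the deviations of each pool from the mean of its group were correlated between OVX or OOX and sham pools. For same-numbered pools Pearson's r of these deviations was 0.14, -0.02 and 0.10 in females and -0.09, -0.31, -0.01 and 0.14 in males. For pools of different number it was -0.14 to 0.06 in females and -0.30 to 0.42 in males. The numbers were not taken as pairs, but so few pools cannot show that they are unpaired.

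Of 487 values of single genes under an alternative, 447 kept their direction and side of the threshold. Of the others 27 lost the call, those of Ins1 and Igf2bp1, and 13 changed sign, all of differences that had not passed. The replicate block, the single fit of all groups, the dropping of dim probes and the t-test cannot change a direction. In females the slide block rests on 1 array of each group, and the scan day block on 1 OVX and 3 sham arrays. In females Insr was 0.21 with the slide block and 2.6e-05 with the scan day block, Igfbp5 0.42 and 0.012, and Igfbp3 -0.013 with normexp and -0.062 to 0.16 with 1 array left out, below 0 without sham replicate 2, sham replicate 3 or OVX replicate 1. In males Ins2 was -0.039 and Igfbp3 0.28 with the slide block, and Igf1r was 0.032 with normexp and -0.12 to 0.050 with 1 array left out, above 0 without OOX replicate 2 or sham replicate 2. Igf2bp1 in females was 0.02 with normexp (adjusted p = 0.985), and its difference between the sexes was -0.35 (adjusted p = 0.667) with normexp, -2.19 with quantile normalization, -2.13 with the slide block and -2.34 with the replicate block, none of which passed. A block for scan day could not be fitted in males, whose arrays were all scanned on 1 day. Without sham female replicate 1, the pool with the highest mean of pituitary markers, Ins1 was 0.86, Igf1 -0.77 and Igfbp6 -1.21. The sham female pools left were still above every OVX pool in these markers.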
